A study of Mus musculus with 12 samples.

Results

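The genes described here are 10 targets of the hypoxia response that lie outside glycolysis: Bnip3, P4ha1, P4ha2, Car9, Ero1l, Ndrg1, Vegfa, Ndufa4l2, Loxl2 and Kdm3a. They were taken by name, 10 of the 35975 genes in the summed tables, and were selected on measured values in part, chosen by their low read counts in the TKO cells primed for 96 h. Every comparison with that group is therefore given as a description, with no test. All 10 passed the filter on low counts and were tested in the other comparisons. At least 10 counts were present in all 12 libraries for 8 of these genes, in 10 libraries for Ndufa4l2 and in 8 for Car9.

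RNA came from cultured mouse cells that resemble the founders of the germline, known as primordial germ cell-like cells or PGCLCs. They were derived from E14TG2a, a line of embryonic stem cells maintained with inhibitors of Gsk3 and MEK (2i), LIF and vitamin C. TKO, as known from the study, carries knockouts of the DNA methyltransferases Dnmt1, Dnmt3a and Dnmt3b, and the labels name no separate clones. TKO cells were primed to epiblast-like cells for 40 h (TKO_40h), 48 h (TKO_48h) or 96 h (TKO_96h) and wild-type cells for 40 h (WT_40h), each with 3 biological replicates. Induction was alike in all groups and lasted 4 days in aggregates, in medium that held LIF, EGF, SCF, BMP8 and BMP4. Wild-type cells primed for longer are not analysed here, so genotype and the longer priming times cannot be told apart in comparisons with WT_40h. The labels name no oxygen level and no hypoxic treatment, and do not say whether RNA was taken from sorted cells or whole aggregates.

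Cells sense oxygen through prolyl hydroxylases that mark the alpha subunits of the hypoxia-inducible factors (HIFs) for destruction. When oxygen is scarce the alpha subunits persist, pair with Arnt and bind a short core in their target promoters and enhancers. The core holds a CG dinucleotide, and methylation of that CG is known to hinder HIF binding. Beside glycolysis, HIF targets serve the turnover and remodelling of mitochondria, collagen maturation, protein folding, acid balance, blood vessel growth and histone demethylation, and the genes described here stand for these arms.

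Libraries held 6570180 to 9114128 estimated counts. The targeted genes were lower in the TKO libraries, with 64.9 to 152 CPM (counts scaled to library size) of Dnmt1 in 9 TKO libraries and 426 to 450 CPM in 3 WT libraries. Dnmt3a had 25.4 to 73.1 CPM in TKO and 358 to 436 CPM in WT, and Dnmt3b had 13.4 to 55.4 CPM in TKO and 157 to 215 CPM in WT. All 8 primordial germ cell markers examined (Prdm1, Prdm14, Tfap2c, Nanos3, Dnd1, Dppa3, Kit and Itgb3) had at least 30 counts in every group. TKO_48h replicate 1 stood apart with the lowest total and 13530 genes at 10 or more counts, against 14420 to 15409 in the other libraries.

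The promoters are shown because the HIF core can be read directly in them. RefSeq (GRCm38.p6) promoters were available for 7 of the 10 genes, and distances are counted from the RefSeq start. The 250 bases before that start are printed 5′ to 3′ on the strand of the gene for the 5 whose first listed promoter holds ACGTG on either strand. Capitals mark every match to ACGTG or GCGTG, on the printed strand or, as CACGT and CACGC, on the other. Ero1l is listed in RefSeq as Ero1a.
Bnip3, chr7:138909507-138909756, minus strand: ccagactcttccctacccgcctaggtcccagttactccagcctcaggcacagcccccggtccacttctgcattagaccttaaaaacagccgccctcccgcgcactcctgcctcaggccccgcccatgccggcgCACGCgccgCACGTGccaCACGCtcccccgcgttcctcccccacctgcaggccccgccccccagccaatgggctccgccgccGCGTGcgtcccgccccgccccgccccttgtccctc
P4ha1, chr10:59323046-59323295, plus strand: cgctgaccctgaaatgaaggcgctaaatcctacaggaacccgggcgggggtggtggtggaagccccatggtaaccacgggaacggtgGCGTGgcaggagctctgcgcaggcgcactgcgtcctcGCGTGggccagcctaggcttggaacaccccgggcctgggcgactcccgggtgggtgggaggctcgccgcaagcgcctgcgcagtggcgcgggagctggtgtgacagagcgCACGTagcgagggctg
P4ha2, chr11:54100674-54100923, plus strand: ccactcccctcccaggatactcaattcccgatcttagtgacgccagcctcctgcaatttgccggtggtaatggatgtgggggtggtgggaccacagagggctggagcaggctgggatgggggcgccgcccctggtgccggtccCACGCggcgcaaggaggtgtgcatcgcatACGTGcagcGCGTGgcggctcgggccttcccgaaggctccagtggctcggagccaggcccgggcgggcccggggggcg
Car9, chr4:43506776-43507025, plus strand: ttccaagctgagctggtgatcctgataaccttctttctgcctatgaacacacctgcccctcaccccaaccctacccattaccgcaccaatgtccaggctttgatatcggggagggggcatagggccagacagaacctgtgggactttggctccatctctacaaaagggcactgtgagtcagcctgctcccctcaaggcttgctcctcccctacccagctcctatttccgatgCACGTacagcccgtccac
Ero1l, chr14:45318573-45318822, minus strand: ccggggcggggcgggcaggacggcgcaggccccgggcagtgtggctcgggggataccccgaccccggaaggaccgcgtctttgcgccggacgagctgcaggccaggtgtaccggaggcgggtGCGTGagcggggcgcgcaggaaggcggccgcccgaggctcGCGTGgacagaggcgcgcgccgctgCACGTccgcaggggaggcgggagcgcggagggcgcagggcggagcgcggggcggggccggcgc
Bnip3 held 5 matches, of which a pair share the palindrome CACGTG, 108 to 103 bases before the start. P4ha1, P4ha2 and Ero1l held 3 matches each. Car9 held a single match, 18 to 14 bases before the start and on the opposite strand, and in the human gene a known hypoxia response element likewise lies just before the start on the opposite strand. Of 32851 mouse promoters of the same length, 38.6% held either form of the core, 16.6% held ACGTG and 6.58% held 3 or more matches. CG dinucleotides numbered 24 in the Bnip3 promoter, 24 in P4ha1, 21 in P4ha2, 5 in Car9 and 41 in Ero1l, beside a median of 6 over all promoters (quartiles 2 and 16), and a core that contains CG can occur more often where CG is frequent. The first promoter of Kdm3a held 1 match, to GCGTG, and the first of Vegfa held none, while its second, internal promoter held 2. Only 250 bases were searched, so a core further upstream would be missed. RefSeq starts can differ from the GENCODE M21 gene spans given below. By those spans the whole P4ha2 stretch lies inside the gene, as do the matches of Car9, Ero1l and Kdm3a. A match is a run of letters and not a measured binding site, and methylation was not measured in these libraries.

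**Figure D1:**
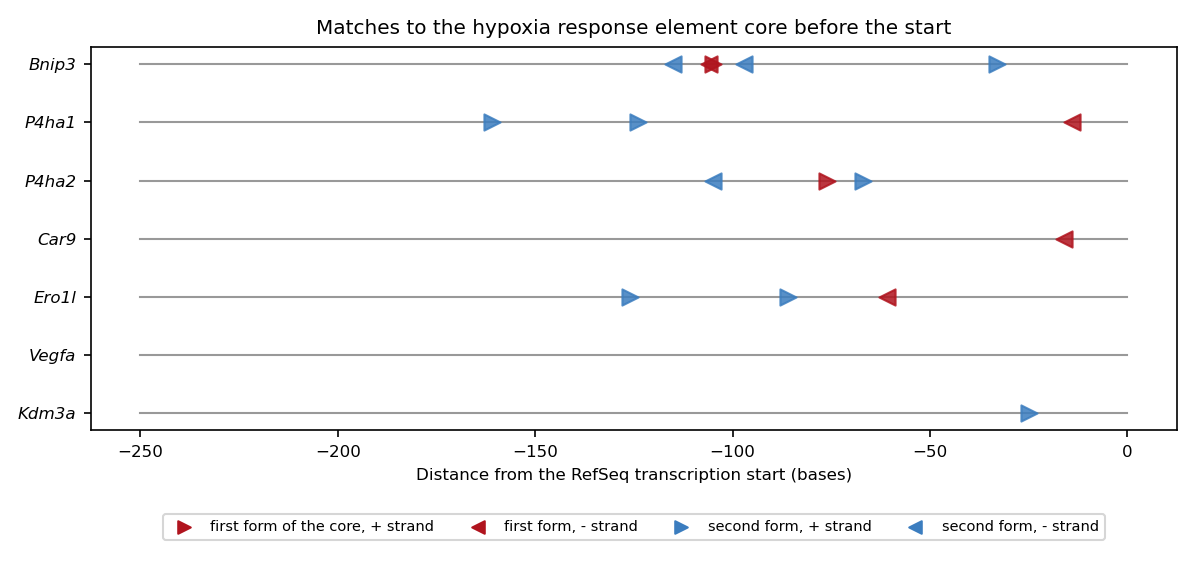
Position of each match to the HIF core in the first listed RefSeq promoter of 7 genes, as distance in bases before the RefSeq transcription start. Red marks stand for ACGTG and blue marks for GCGTG, pointing right on the strand of the gene and left on the other; Bnip3 carries 5 matches, Car9 1 and Vegfa none.

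Levels can be set against each other only per transcript length, in TPM, the authors' length-scaled values. On that scale Bnip3 was the most abundant of these genes in TKO_40h (155 ± 29.0 TPM, SD, n = 3), in TKO_48h (211 ± 41.9 TPM) and in WT_40h (184 ± 15.8 TPM), above Kdm3a in all libraries of those groups. In TKO_96h the order differed. Kdm3a led with 70.7 ± 8.52 TPM, and Ero1l (13.3 ± 7.15 TPM) and Bnip3 (10.4 ± 6.29 TPM) followed with overlapping libraries. Car9 was the lowest in TKO_40h, TKO_48h and WT_40h, at 0.563 ± 0.574, 3.05 ± 1.55 and 1.91 ± 0.453 TPM. In the middle of the order in TKO_40h, from P4ha1 at 33.1 ± 2.93 TPM down to Loxl2 at 9.16 ± 0.446 TPM, each of the 7 genes overlapped its neighbours on the list. In WT_40h, Ero1l overlapped P4ha1 and Ndufa4l2 overlapped P4ha2, and the libraries of all other neighbours were apart. Unless TPM is named, levels and overlaps of libraries below are in CPM scaled by TMM, and compare libraries for the same gene. In bulk RNA, fewer expressing cells and less RNA per cell cannot be told apart.

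**Figure D2:**
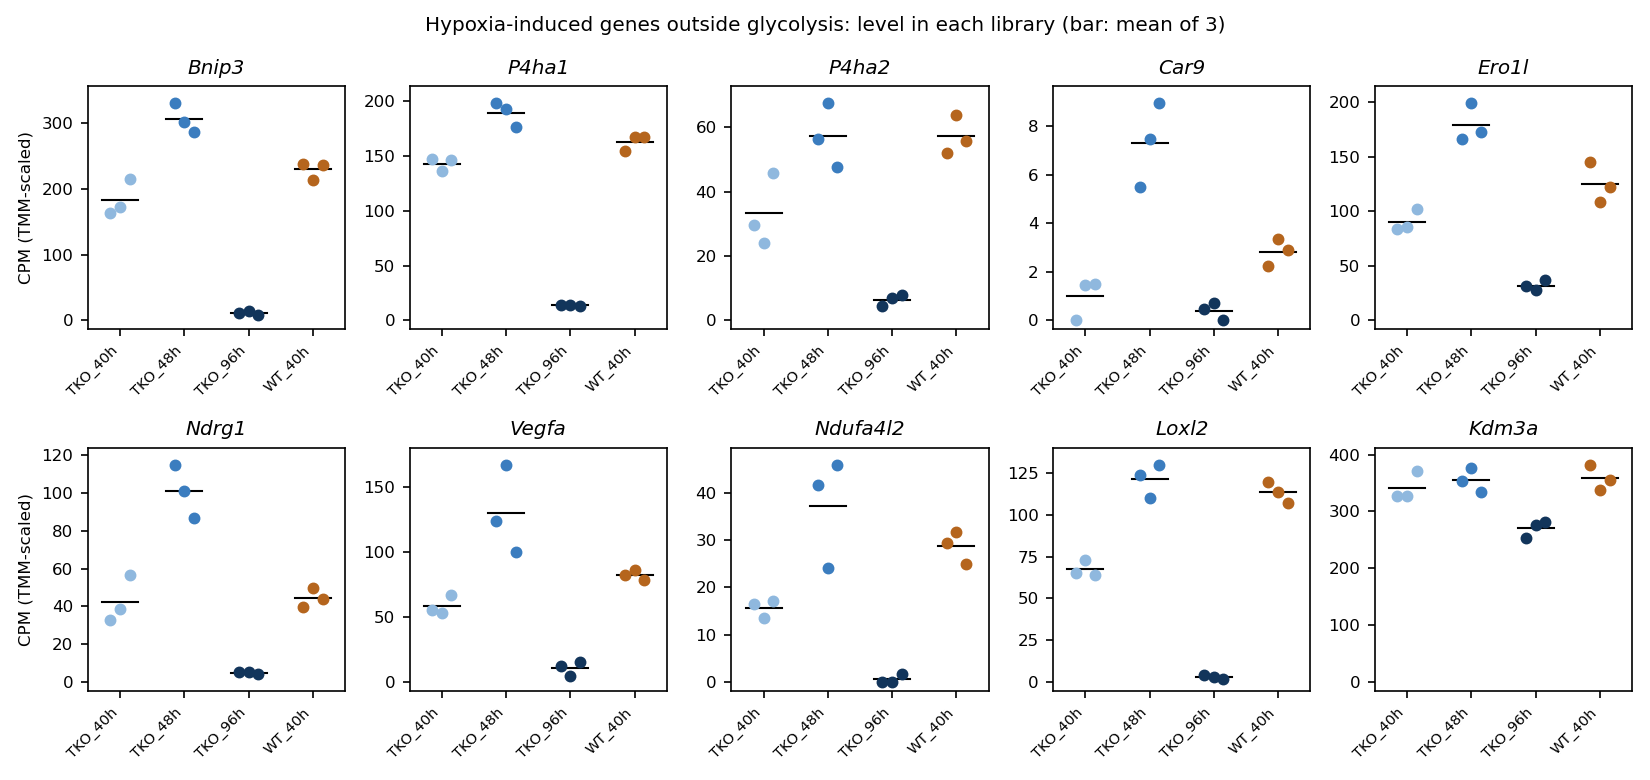
CPM (TMM-scaled) of each gene in each of the 12 libraries, by group, with 1 point per library and a bar at the mean of 3; each panel has its own linear axis. TKO_96h has the lowest mean in every panel, Car9 has a point at 0 in TKO_40h and in TKO_96h, and Kdm3a stays between 253 and 382 CPM throughout.

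After 48 h of priming, 9 of these 10 genes were called higher in TKO than after 40 h, by 1.32-fold (P4ha1) to 7.19-fold (Car9), and the tenth, Kdm3a, was not called. Over all 16178 genes tested, 2.57% were called higher in TKO_48h. In the same 9 genes every TKO_48h library was above every TKO_40h library in CPM, as in 12% of all genes. In TPM this held for 4 of them, Car9, Ndrg1, Ndufa4l2 and Loxl2. The median log2 fold change was 0.92 for the 10 genes and 0.0 for all genes. In the other direction, between the genotypes at 40 h, all 10 had a log2 fold change below 0 in TKO_40h against WT_40h, but only Loxl2 was called (6 had an unadjusted p below 0.05), beside 1.48% of all genes called lower. Their median there was -0.48, beside -0.0 over all genes, and 7 of the 10 had every TKO_40h library below every WT_40h library, as did 12.6% of all genes. TKO_48h against WT_40h gave 2 genes called higher, Ero1l and Ndrg1, beside 2.84% of all genes, and a median of 0.39. There 6 genes had every TKO_48h library above every WT_40h library, as did 11.9% of all genes. The 3 comparisons share libraries, and a low TKO_40h level enters the comparisons with TKO_48h and WT_40h with opposite signs. That the hypoxia genes as a group were higher in TKO_48h was known when the genes were chosen, so the counts are not independent evidence of direction.

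Some other measures also differed between the 48 h and 40 h libraries, and their part in these results was not tested. Ribosomal RNA took 1.78 to 2.15% of counts in TKO_48h and 0.91 to 1.11% in TKO_40h. The summed level of 6 naive stem cell markers, all detected and none at 0, was 198 to 256 TPM in TKO_48h and 273 to 289 TPM in TKO_40h. Zfp42 was the largest part of that sum, with means of 148 TPM in TKO_48h and 203 TPM in TKO_40h. Of the 6, only Tfcp2l1 had a higher mean in TKO_48h, at 8.99 TPM against 8.06 TPM in TKO_40h. The sums of 8 endoderm markers overlapped, at 7.07 to 15.3 TPM in TKO_48h and 14 to 17 TPM in TKO_40h, with 6 and 7 of them at 30 counts or more. Germ cell markers overlapped too, at 72.5 to 97.9 TPM in TKO_48h and 79.0 to 90.9 TPM in TKO_40h. Between TKO_40h and WT_40h several marker sums were apart, and their part in the difference of the genotypes was not tested either. Endoderm markers summed to 14 to 17 TPM in TKO_40h and 7.27 to 9.84 TPM in WT_40h, naive markers to 273 to 289 TPM in TKO_40h and 202 to 241 TPM in WT_40h, and germ cell markers to 79.0 to 90.9 TPM in TKO_40h and 55.8 to 67.5 TPM in WT_40h. Zfp42 led the naive sum here too, with means of 203 TPM in TKO_40h and 135 TPM in WT_40h. Klf4 (10.6 and 13.6 TPM) and Nr5a2 (12.8 and 17.5 TPM) had lower means in TKO_40h than in WT_40h. The 7 trophoblast markers summed to 13.4 to 17.7 TPM in TKO_40h and 5.99 to 9.16 TPM in WT_40h, and the 6 mesoderm markers to 5.19 to 9.23 TPM in TKO_40h and 2.92 to 3.83 TPM in WT_40h, none of them at 0. Of these, Krt7 (0.834 and 0.981 TPM) and Tbx6 (0.573 and 0.577 TPM) had lower means in TKO_40h than in WT_40h. Dppa3 alone averaged 49.4 TPM in TKO_40h and 15.2 TPM in WT_40h, and the other 7 germ cell markers summed to 32.3 to 36.2 TPM in TKO_40h, below 44.5 to 50.8 TPM in WT_40h. Ribosomal RNA, at 0.93 to 1.29% in WT_40h, overlapped. Without TKO_48h replicate 1, the library that stood apart, 5 of the 10 genes were called higher in TKO_48h than in TKO_40h. The same number was called without TKO_40h replicate 1 and without TKO_40h replicate 2. Over all genes tested, fits that left out 1 library called 324 to 1107 in this comparison. The 5 genes called whichever library was left out were Bnip3, Ero1l, Ndrg1, Vegfa and Loxl2. With an offset for effective transcript length only Ndrg1 and Loxl2 of the 9 passed, with 203 genes called in all against 888 without it, and the log2 fold changes of the 9 stayed above 0. A fit on TKO_48h and TKO_40h alone called 607 genes in all and 7 of the 10, without P4ha2 and Car9 (edgeR adjusted p = 0.0642 and 0.0575).

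**Figure D3:**
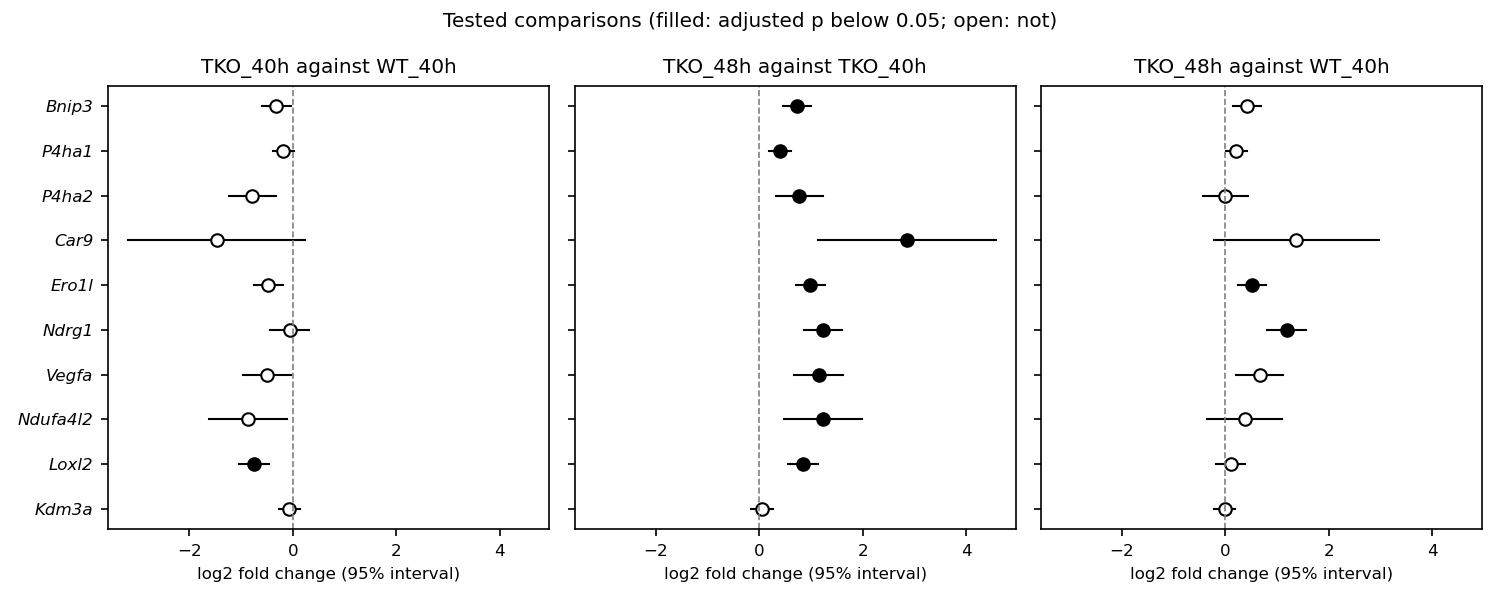
Log2 fold change of each gene in the 3 tested comparisons, with bars for the 95% interval and filled points where the adjusted p of edgeR's quasi-likelihood test was below 0.05. Filled points number 1 in TKO_40h against WT_40h (Loxl2), 9 in TKO_48h against TKO_40h and 2 in TKO_48h against WT_40h (Ero1l and Ndrg1).

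Among genes of the mitochondrion, Bnip3 (ENSMUSG00000078566, chr7:138890836-138909519, minus strand) encodes a receptor of the outer membrane that marks mitochondria for removal by autophagy. Its libraries held 330, 302 and 287 CPM in TKO_48h, against 164, 172 and 215 CPM in TKO_40h. The lowest 48 h library was thus above the highest 40 h library, and Bnip3 rose by 0.74 ± 0.13 on the log2 scale (SE; edgeR adjusted p = 0.00293). In WT_40h it had 238, 214 and 237 CPM, with 1 TKO_40h library above the lowest of these. TKO_40h was -0.32 ± 0.13 from WT_40h, a difference that was not called (edgeR adjusted p = 0.232). TKO_48h was 0.42 ± 0.13 from WT_40h (edgeR adjusted p = 0.0686), with no overlap of libraries in CPM. Of its 31-base words, 20.3% also occur in other transcripts, chiefly the pseudogenes Gm16439, Gm6532 and Gm9419, which were listed at 0.556 CPM or less in all libraries.

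Ndufa4l2 (ENSMUSG00000040280, chr10:127514967-127517154, plus strand) is a relative of the respiratory chain protein Ndufa4 and is known to lower respiration in hypoxic cells. It had 41.6, 24.1 and 45.9 CPM in TKO_48h, against 16.5, 13.6 and 17.1 CPM in TKO_40h and 29.4, 31.8 and 25.0 CPM in WT_40h. The 48 h libraries varied by more than those of the other groups, with replicate 2 below all WT libraries. The rise over TKO_40h was 1.24 ± 0.36 on the log2 scale and lay at the edge of the threshold (edgeR adjusted p = 0.0499). It was called in 4 of the 12 fits that left out 1 library, DESeq2 gave an adjusted p of 0.265, and the replicate block and the robust fit gave edgeR adjusted p of 0.0516 and 0.142. TKO_40h was -0.87 ± 0.36 from WT_40h, which was not called (edgeR adjusted p = 0.233), although every TKO_40h library lay below every WT_40h library.

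Collagen is hydroxylated in the endoplasmic reticulum and crosslinked outside the cell. P4ha1 (ENSMUSG00000019916, chr10:59323296-59373304, plus strand) is a catalytic subunit of the collagen prolyl 4-hydroxylase. It had 198, 193 and 176 CPM in TKO_48h, against 147, 136 and 146 CPM in TKO_40h and 155, 167 and 167 CPM in WT_40h. Its 3 groups did not overlap in CPM, with TKO_48h highest and TKO_40h lowest, and the SD within a group was 11.2 CPM or less. In TPM they overlapped, with means of 34.5 TPM in TKO_48h, 33.1 TPM in TKO_40h and 35.4 TPM in WT_40h. P4ha1 rose by 0.4 ± 0.1 between TKO_48h and TKO_40h (edgeR adjusted p = 0.0197), the smallest of the called changes, and was called in 8 of 12 fits that left out 1 library. Neither TKO_40h (-0.19 ± 0.1, edgeR adjusted p = 0.369) nor TKO_48h (0.21 ± 0.1, edgeR adjusted p = 0.222) was called against WT_40h.

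P4ha2 (ENSMUSG00000018906, chr11:54100095-54131665, plus strand) is the alternative catalytic subunit of the same enzyme. Its values were 56.5, 67.5 and 47.7 CPM in TKO_48h, against 29.7, 24.1 and 46.0 CPM in TKO_40h and 52.0, 63.9 and 55.8 CPM in WT_40h. TKO_40h replicate 3 came close to the lowest 48 h library. P4ha2 rose by 0.78 ± 0.22 on the log2 scale in TKO_48h against TKO_40h (edgeR adjusted p = 0.0392), a call kept in 5 of 12 fits without 1 library. TKO_48h and WT_40h overlapped, with a log2 fold change of 0.0 and a 95% interval of -0.44 to 0.44. TKO_40h was -0.78 ± 0.22 from WT_40h (edgeR adjusted p = 0.0539), not called here and called without TKO_40h replicate 3, without TKO_48h replicate 1, without TKO_48h replicate 2 or without TKO_96h replicate 1, with adjusted p between 0.0166 and 0.244 over the 12 fits. It was called in 6 of 8 other settings, DESeq2 among them, with adjusted p between 0.000937 and 0.617 over the 8. Part of its signal was assigned to transcripts that do not encode the protein: coding transcripts took 68.0% of P4ha2 counts in TKO_48h, 51.4% in TKO_40h and 70.0% in WT_40h.

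Loxl2 (ENSMUSG00000034205, chr14:69609068-69695834, plus strand) encodes a lysyl oxidase-like enzyme that crosslinks collagen and elastin. It had 65.4, 73.0 and 63.9 CPM in TKO_40h, against 120, 114 and 107 CPM in WT_40h. The groups were well apart, and Loxl2 was lower in TKO_40h, with a log2 fold change of -0.75 ± 0.14 (edgeR adjusted p = 0.00543). It was the one gene of the 10 called between the genotypes at 40 h, in all 12 fits without 1 library and all 8 other settings. In TKO_48h its 124, 110 and 130 CPM overlapped WT_40h, at a log2 fold change of 0.1 with a 95% interval of -0.19 to 0.38. TKO_48h was above TKO_40h by 0.85 ± 0.14 (edgeR adjusted p = 0.00152). Of its 31-base words, 46.4% also occur in other transcripts, mainly Gm21451 and Gm16867 on the same chromosome, which were listed at 2.41 CPM or less in all libraries, so that kallisto could have divided reads between them.

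Ero1l (ENSMUSG00000021831, chr14:45283087-45318771, minus strand) encodes an oxidase that keeps protein disulfide isomerase ready to form disulfide bonds. Its libraries held 166, 199 and 173 CPM in TKO_48h, against 83.4, 86.1 and 102 CPM in TKO_40h. No library was between 102 and 166 CPM in these groups, and the change of 0.99 ± 0.13 on the log2 scale had the smallest adjusted p of the 10 genes (edgeR adjusted p = 0.000248). In WT_40h Ero1l had 145, 109 and 122 CPM, all below TKO_48h and all above TKO_40h. TKO_48h was above WT_40h by 0.52 ± 0.13 (edgeR adjusted p = 0.0255). That call was lost without WT_40h replicate 2, WT_40h replicate 3, TKO_48h replicate 2 or TKO_48h replicate 3, with adjusted p up to 0.143. With the effective length offset it was lost as well (edgeR adjusted p = 0.525). The offset also ended the call of TKO_48h against TKO_40h (edgeR adjusted p = 0.112). Against WT_40h, TKO_40h was at -0.47 ± 0.13 (edgeR adjusted p = 0.0628), which was not called.

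Ndrg1 (ENSMUSG00000005125, chr15:66929318-66969640, minus strand), a cytoplasmic stress-response gene, was called higher in TKO_48h against both other groups. It had 115, 101 and 87.1 CPM in TKO_48h, against 32.8, 38.4 and 56.4 CPM in TKO_40h and 39.7, 49.8 and 44.1 CPM in WT_40h. TKO_40h and WT_40h overlapped, at a log2 fold change of -0.06 with a 95% interval of -0.43 to 0.31. The 48 h libraries lay above all of these. Ndrg1 rose by 1.24 ± 0.18 against TKO_40h (edgeR adjusted p = 0.000363) and by 1.18 ± 0.18 against WT_40h (edgeR adjusted p = 0.000599), calls that held in all 12 fits without 1 library and in all 8 other settings.

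Vegfa (ENSMUSG00000023951, chr17:46016993-46032369, minus strand) encodes the secreted growth factor that drives vessel formation. Its values were 124, 167 and 99.9 CPM in TKO_48h, against 55.7, 52.9 and 66.6 CPM in TKO_40h and 82.6, 86.1 and 78.2 CPM in WT_40h. The 3 groups did not overlap in CPM, though the 48 h libraries spread widely, with an SD of 33.8 CPM. In TPM they overlapped, at 25.4 to 67.2 TPM in TKO_48h, 16.1 to 32.6 TPM in TKO_40h and 29.8 to 33.0 TPM in WT_40h. The rise over TKO_40h was 1.15 ± 0.22 on the log2 scale (edgeR adjusted p = 0.00519). Against WT_40h, TKO_48h was at 0.66 ± 0.22 (edgeR adjusted p = 0.0863) and TKO_40h at -0.49 ± 0.22 (edgeR adjusted p = 0.285), neither of them called.

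Car9 (ENSMUSG00000028463, chr4:43506966-43513729, plus strand) encodes a carbonic anhydrase of the cell surface that exports acid and is widely used as a hypoxia marker. It was the rarest of the 10 genes, with 5.5, 7.49 and 8.95 CPM in TKO_48h, against 0, 1.46 and 1.51 CPM in TKO_40h and 2.23, 3.34 and 2.9 CPM in WT_40h. The groups did not overlap in CPM. However, they rest on 32, 56 and 63 counts in TKO_48h, 0, 11 and 13 in TKO_40h and 20, 25 and 21 in WT_40h. The 0 in TKO_40h replicate 1 allows up to 3 counts, or 0.415 CPM. The log2 fold change of 2.85 ± 0.82 between TKO_48h and TKO_40h was the largest of the 10 and just passed (edgeR adjusted p = 0.048), with a 95% interval of 1.13 to 4.57. It was called in 3 of 12 fits without 1 library. Neither TKO_48h (1.37 ± 0.76, edgeR adjusted p = 0.338) nor TKO_40h (-1.47 ± 0.81, edgeR adjusted p = 0.412) was called against WT_40h, with 95% intervals of -0.22 to 2.96 and -3.18 to 0.23 that leave the direction undetermined at this depth. Coding transcripts took 90.0% of Car9 counts in TKO_48h, 91.3% in TKO_40h and 44.7% in WT_40h, and none in TKO_96h. Its main coding transcript (ENSMUST00000030183) had 25.9, 51.2 and 58.1 counts in TKO_48h, against 0, 8.54 and 13.2 in TKO_40h and 17.0, 5.16 and 0 in WT_40h. TKO_40h and WT_40h thus overlapped on that transcript, while TKO_48h lay above both.

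Kdm3a (ENSMUSG00000053470, chr6:71588972-71632990, minus strand) encodes a demethylase of histone H3 lysine 9 and was the gene of the 10 not called in any of the 3 comparisons, with unadjusted p of 0.574, 0.507 and 0.919. It had 354, 377 and 335 CPM in TKO_48h, 327, 328 and 371 CPM in TKO_40h and 382, 338 and 355 CPM in WT_40h. All 3 groups overlapped. The log2 fold change of TKO_48h against TKO_40h was 0.06, with a 95% interval of -0.15 to 0.26 (edgeR adjusted p = 0.832), and that of TKO_40h against WT_40h was -0.07, with an interval of -0.27 to 0.14 (edgeR adjusted p = 0.833). TKO_48h against WT_40h gave -0.01, with an interval of -0.22 to 0.19.

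The TKO_96h level chose these genes in part, so the following values describe and support nothing. Every one of the 10 had a log2 fold change below 0 in TKO_96h against TKO_40h, with a median of -2.79 beside 0.0 over all genes. In 9 of them, all but Car9, every TKO_96h library was below every TKO_40h library, as was so for 16.9% of all genes. Against TKO_48h all 10 were apart in this way (17.1% of all genes), with a median of -4.0. Likewise, TKO_96h was below WT_40h in every library for all 10 (19.4% of all genes), with a median of -3.17. Of the 100 genes with the lowest log2 fold change in TKO_96h against TKO_40h, 3 were members, Ndufa4l2 at rank 50, Loxl2 at rank 54 and Bnip3 at rank 74.

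Bnip3 had 11.3, 14.8 and 8.84 CPM in TKO_96h, 15.8-fold below TKO_40h, and Ndufa4l2 had 0, 0 and 1.71 CPM. A 0 there allows up to 3 counts, 0.453 CPM in replicate 1 and 0.42 CPM in replicate 2. The fitted fold of Ndufa4l2, 25.4 below TKO_40h, rests on the 13 counts of replicate 3, and without that library the group is at 0 throughout and the fitted log2 value of -9.86 is no measured fold. Of those counts only 9.21% were assigned to its coding transcript, against 92.7% in TKO_40h.

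The collagen genes P4ha1, P4ha2 and Loxl2 were among those with low values in all 3 libraries. P4ha1 had 14, 13.9 and 13.2 CPM in TKO_96h, 10.4-fold below TKO_40h, the narrowest spread of the 10 genes relative to its mean. P4ha2 had 4.38, 7.0 and 8.05 CPM, 5.11-fold below TKO_40h, and coding transcripts took 18.9% of its counts. Loxl2 had 4.23, 2.8 and 1.71 CPM, 23.3-fold below TKO_40h.

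Ero1l kept 31.6, 27.6 and 36.9 CPM in TKO_96h, 2.83-fold below TKO_40h. Ndrg1 had 5.13, 5.18 and 4.09 CPM, 8.88-fold below (5.82-fold with the effective length offset), and Vegfa had 12.2, 4.76 and 15.4 CPM, 5.39-fold below. Car9 had 0.453, 0.7 and 0 CPM, on 3, 5 and 0 counts with an upper limit of 0.396 CPM for the 0, and overlapped TKO_40h, whose replicate 1 was also at 0. Its fitted log2 fold change against TKO_40h, -1.37, was -2.13 without TKO_96h replicate 2, -0.77 without TKO_96h replicate 3 and -0.48 with the effective length offset. At the other end Kdm3a had 253, 277 and 282 CPM, 1.26-fold below TKO_40h. Kdm3a and Car9 thus stand at the edge of the choice, with log2 fold changes of -0.34 and -1.37, while Ndufa4l2 and Loxl2 had -4.66 and -4.55.

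Cell markers differed between TKO_96h and the other groups as well, and their part in these low values was not tested. The 6 naive stem cell markers, none at 0, summed to 402 to 429 TPM in TKO_96h, against 273 to 289 TPM in TKO_40h and 202 to 241 TPM in WT_40h. Zfp42 led these sums, with means of 299 TPM in TKO_96h, 203 TPM in TKO_40h and 135 TPM in WT_40h. All 6 means were higher in TKO_96h than in TKO_40h, while that of Nr5a2 was lower in TKO_96h than in WT_40h (14.8 and 17.5 TPM). The 8 germ cell markers summed to 50.4 to 62.1 TPM in TKO_96h, below 79.0 to 90.9 TPM in TKO_40h and overlapping 55.8 to 67.5 TPM in WT_40h. The sum against TKO_40h was led by Dppa3, which averaged 17.4 TPM in TKO_96h and 49.4 TPM in TKO_40h, with Tfap2c (8.46 and 13.0 TPM) and Prdm1 (1.73 and 4.75 TPM) also lower in TKO_96h. The means of Kit (16.7 TPM in TKO_96h and 8.77 TPM in TKO_40h), Prdm14, Nanos3, Dnd1 and Itgb3 were higher in TKO_96h. Without Dppa3 the other 7 summed to 35 to 44 TPM in TKO_96h and 32.3 to 36.2 TPM in TKO_40h, and overlapped. The 8 endoderm markers summed to 3.39 to 5.85 TPM in TKO_96h, with Afp and Apoa1 at 0, and to 14 to 17 TPM in TKO_40h. The 6 neural markers summed to 46.6 to 51.9 TPM in TKO_96h and 27.1 to 38.8 TPM in TKO_40h. Trophoblast markers (7 genes) summed to 7.14 to 11.8 TPM in TKO_96h and 13.4 to 17.7 TPM in TKO_40h, mesoderm markers (6 genes, T at 0 in TKO_96h) to 3.11 to 3.69 TPM and 5.19 to 9.23 TPM in these groups. Against these sums, the means of the trophoblast markers Elf5 (1.24 and 1.0 TPM) and Krt7 (1.07 and 0.834 TPM) were higher in TKO_96h. So were those of the mesoderm markers Tbx6 (0.671 and 0.573 TPM), Mixl1 and Mesp1. Endothelial markers (7 genes, Emcn at 0 in both) overlapped at 18.0 to 28.1 TPM in TKO_96h and 15.6 to 27.0 TPM in TKO_40h, and 5 surface ectoderm markers stayed at 2.15 TPM or less in both. TKO_96h replicate 1 stood apart in the share of Lars2 with Ccnb1ip1, at 3.06% of counts, beside 1.3 to 1.93% in the other libraries of the series.

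**Figure D4:**
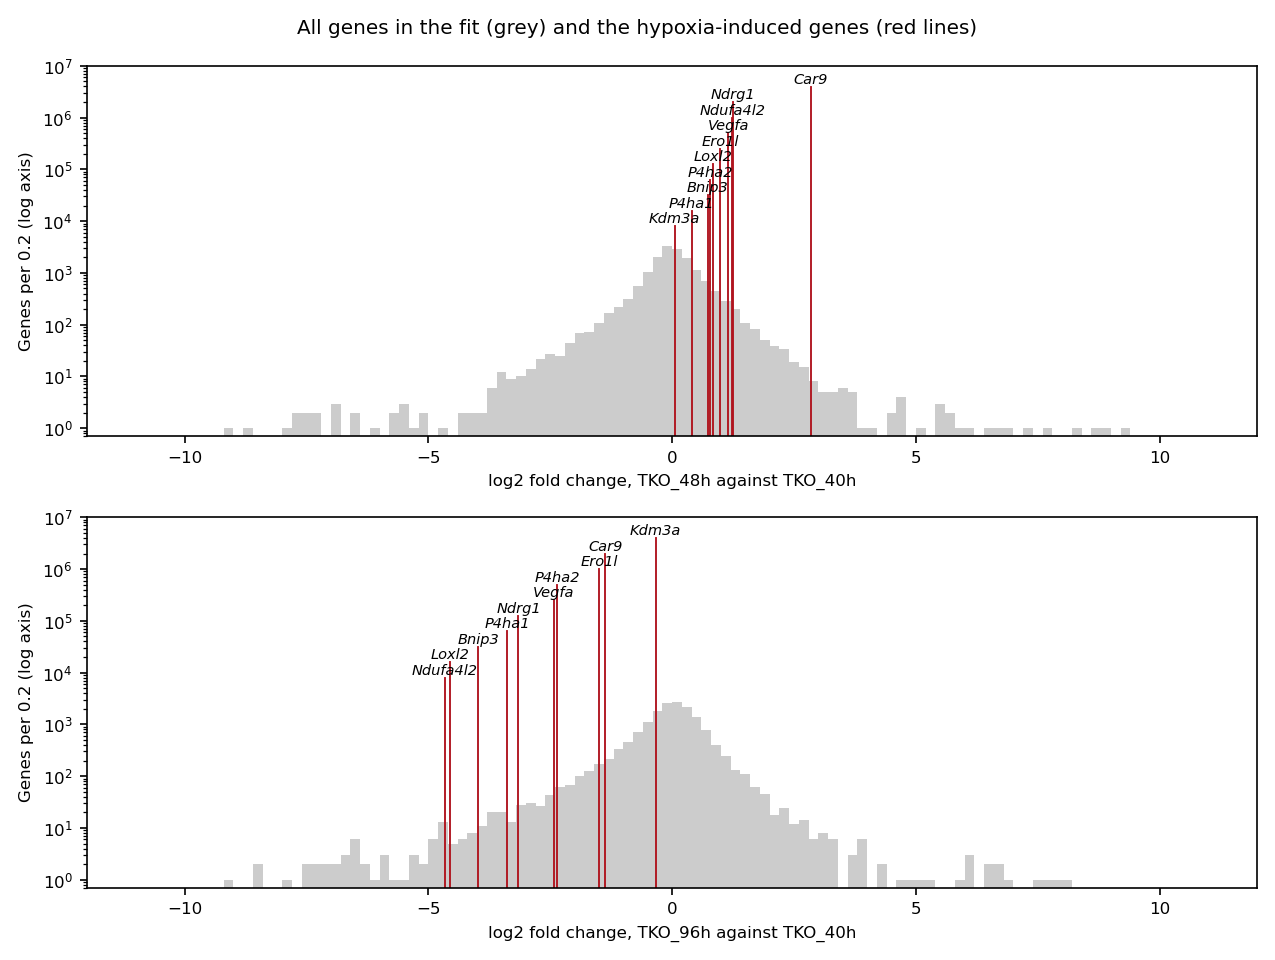
Number of genes per bin of 0.2 in log2 fold change (grey, log axis) for TKO_48h against TKO_40h (upper panel) and TKO_96h against TKO_40h (lower panel), with a red line at each of the 10 hypoxia genes; the heights of the lines carry no value. The lines lie between 0.06 and 2.85 in the upper panel and between -4.66 and -0.34 in the lower one.

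The HIF subunits and the enzymes that sense oxygen stand upstream of these targets. Hif1a, the inducible alpha subunit, had 149 ± 5.22 CPM in TKO_40h, 118 ± 1.78 CPM in TKO_48h, 181 ± 13.9 CPM in TKO_96h and 138 ± 7.92 CPM in WT_40h (SD, n = 3 each). Its part in the target levels was not tested. Epas1, which encodes HIF-2 alpha, had 175 ± 7.29, 190 ± 13.2, 179 ± 18.1 and 155 ± 16.5 CPM in the same order of groups, and their partner Arnt had 117 ± 12.9, 124 ± 11.5, 98.3 ± 7.62 and 123 ± 10.3 CPM. Of 10 oxygen sensors and HIF subunits, edgeR called 2 higher in TKO_48h than in TKO_40h and 0 lower, beside 2.57% and 2.92% of all genes. Lower genes numbered 1 at an unadjusted edgeR p below 0.05 and 1 by DESeq2, and the median log2 fold change was 0.12. The 2 called higher were the prolyl hydroxylases Egln1, at 175 ± 10.2 CPM in TKO_48h and 74.2 ± 1.21 CPM in TKO_40h (edgeR adjusted p = 3.15e-06), and Egln3, at 104 ± 17.1 and 65.8 ± 7.04 CPM (edgeR adjusted p = 0.0174), both HIF targets too. Egln1 was also the called gene of the list between TKO_40h and WT_40h, at -0.85 ± 0.11 (edgeR adjusted p = 0.000223), beside 1.48% of all genes called lower. It was again the called gene between TKO_48h and WT_40h, at 0.39 ± 0.11 (edgeR adjusted p = 0.0424), beside 2.84% of all genes called higher.

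Other HIF targets outside glycolysis, 28 tested of 30 listed, moved the same way in part. Between TKO_48h and TKO_40h, 9 were called higher and 0 lower (edgeR; 1 lower at an unadjusted p below 0.05 and 0 by DESeq2), beside 2.57% and 2.92% of all genes, with a median log2 fold change of 0.49. Bhlhe40, a transcriptional repressor, had 224 ± 24.9 CPM in TKO_48h and 80.8 ± 6.69 CPM in TKO_40h (edgeR adjusted p = 1.75e-06). The glycogen synthase gene Gys1, the histone demethylase gene Kdm4b and the peptide hormone gene Adm rose by 0.94 ± 0.14, 0.94 ± 0.17 and 1.73 ± 0.32 (edgeR adjusted p = 0.000547, 0.00326 and 0.00347). TKO_40h against WT_40h gave 1 higher and 2 lower of these, beside 1.62% and 1.48% of all genes: Bhlhe40 at -1.12 ± 0.13 (edgeR adjusted p = 5.23e-05) and the mitophagy receptor gene Bnip3l at -0.5 ± 0.11 (edgeR adjusted p = 0.0186) were lower, and the mitochondrial adenylate kinase gene Ak4 was higher at 0.83 ± 0.13 (edgeR adjusted p = 0.00167). In TKO_48h against WT_40h, 3 were called higher, beside 2.84% of all genes: Ak4, the collagen lysyl hydroxylase gene Plod2 and Gys1, at 0.86 ± 0.13, 0.53 ± 0.11 and 0.48 ± 0.14 (edgeR adjusted p = 0.00085, 0.00718 and 0.0413).

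Of 20 glycolytic HIF targets, 11 were called higher and 0 lower in TKO_48h against TKO_40h (edgeR; 0 lower also at an unadjusted p below 0.05 and by DESeq2), beside 2.57% and 2.92% of all genes, with a median log2 fold change of 0.45. Gpi1, Aldoa, Hk1 and Pfkfb3, the 4 of smallest adjusted p, rose by 0.74 ± 0.09, 0.64 ± 0.1, 0.98 ± 0.16 and 0.98 ± 0.16 (edgeR adjusted p = 0.000166, 0.000786, 0.00119 and 0.00125). Between TKO_40h and WT_40h, Gpi1 (-0.59 ± 0.09, edgeR adjusted p = 0.00148) and Pfkfb3 (-0.83 ± 0.16, edgeR adjusted p = 0.00647) were called lower, beside 1.48% of all genes. In TKO_48h against WT_40h 5 were called higher, beside 2.84% of all genes, with Hk1 at 0.87 ± 0.16, Gapdh at 0.54 ± 0.1, Aldoa at 0.38 ± 0.1 and Slc16a3 at 0.48 ± 0.13 (edgeR adjusted p = 0.00295, 0.00383, 0.026 and 0.0314). In TKO_96h against TKO_40h, described without a test, the median was -1.52 for the glycolytic genes and -0.7 for the other targets outside glycolysis, beside -2.79 for the 10 genes chosen partly for that fall.

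Relatives and partners of the 10 genes (24 tested of 25), most of which are not known as HIF targets, had 3 called higher and 3 lower in TKO_48h against TKO_40h, beside 2.57% and 2.92% of all genes, and a median log2 fold change of 0.13. Ndrg2, a relative of Ndrg1, rose by 1.54 ± 0.29 (edgeR adjusted p = 0.00443), whereas the carbonic anhydrases Car2 and Car4, relatives of Car9, were at 52.8 ± 4.68 and 9.2 ± 3.39 CPM in TKO_48h, against 110 ± 3.6 and 31.3 ± 6.83 CPM in TKO_40h (edgeR adjusted p = 3.25e-05 and 0.0281). Jmjd1c, a relative of Kdm3a, was lower too, at -0.67 ± 0.12 (edgeR adjusted p = 0.00232). Between TKO_40h and WT_40h only Ndrg2 of this list was called, beside 1.48% of all genes called lower, at -1.33 ± 0.29 (edgeR adjusted p = 0.0163). TKO_48h against WT_40h gave 3 higher and 2 lower (2.84% and 2.82% of all genes), among them the Vegfa co-receptor gene Nrp2 at 1.52 ± 0.22 and P4hb, the partner subunit of P4ha1 and P4ha2, at 0.49 ± 0.11 (edgeR adjusted p = 0.0005 and 0.0116), and Car2 at -0.94 ± 0.12 and Jmjd1c at -0.56 ± 0.12 (edgeR adjusted p = 0.000144 and 0.00807).

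**Figure D5:**
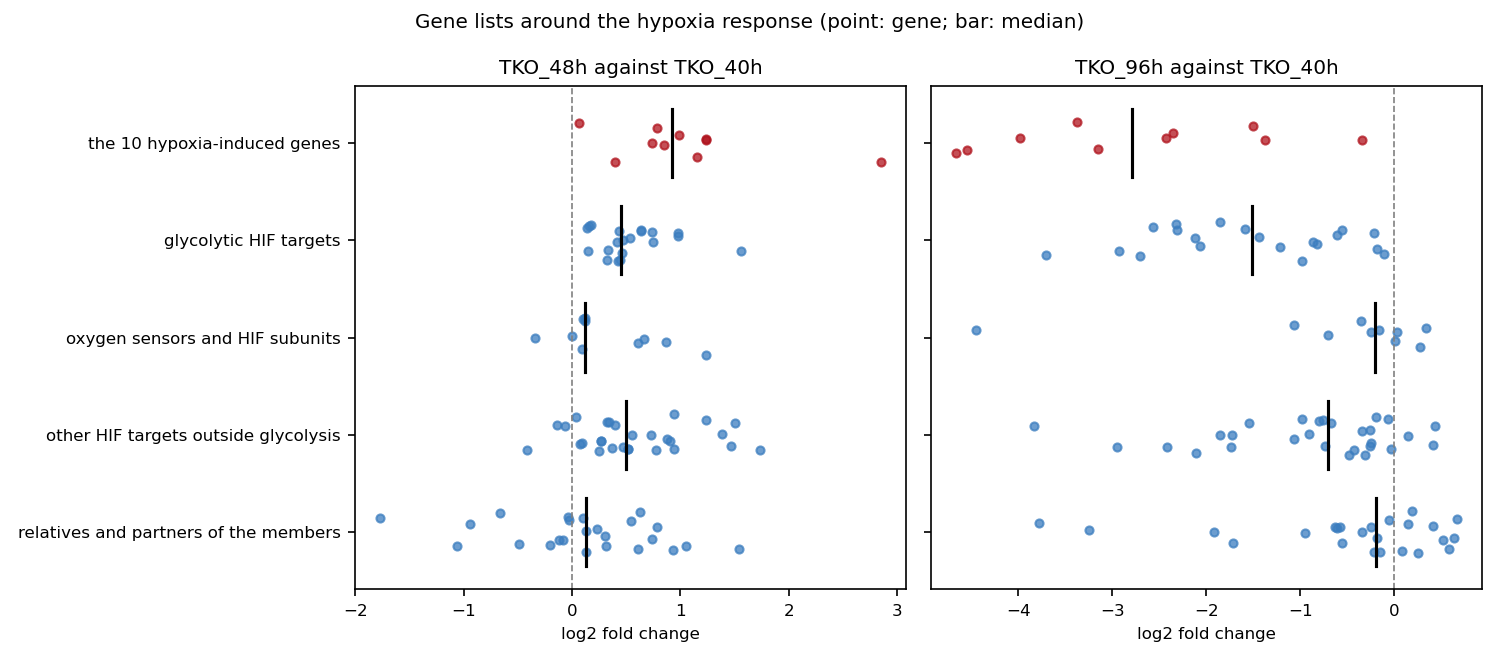
Log2 fold change of every tested gene of 5 lists (points) with the list's median (bar), for TKO_48h against TKO_40h (left) and TKO_96h against TKO_40h (right). Medians on the left are 0.92 for the 10 hypoxia genes, 0.45 for glycolytic targets, 0.12 for sensors and subunits, 0.49 for other targets and 0.13 for relatives and partners.

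Across libraries the levels of the 10 genes were correlated, a pattern that the choice of the genes on a shared group favours. Over the 12 libraries, the 45 pairs had Pearson r from 0.635 to 0.995 with a median of 0.943. Over the 9 libraries without TKO_96h the range was 0.137 to 0.951 and the median 0.775. The genes outside the 10 whose log2 CPM lay closest to their mean profile over 12 libraries were Aldoa (r = 0.99), Pgm1 (0.989), Slc2a3 (0.985), Zfp516 (0.982), Pfkfb3 (0.981), Ldha (0.981), Pfkl (0.98), Egln3 (0.979), Stc2 (0.979) and Ddit4 (0.979). Without TKO_96h their r ran from 0.727 (Ldha) to 0.929 (Pfkfb3). Taken singly, Bnip3 and P4ha1 were both closest to Egln3 (r = 0.995 and 0.997 over 12 libraries), P4ha2 to Pgm1 (0.988), Ero1l to Gpi1 (0.978), Ndrg1 to Pkm (0.983) and Loxl2 to Pfkl (0.989). Car9 was closest to Itgb4 (0.954), Vegfa to Clybl (0.98), Ndufa4l2 to Rdh11 (0.977) and Kdm3a to Ric1 (0.951). Without TKO_96h each of these single r was lower, from 0.671 (Loxl2 with Pfkl) to 0.949 (Car9 with Itgb4). These values are descriptions over libraries that share groups, depth and scaling, with most of the spread lying between groups.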

How the data were processed

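Strand-specific total RNA libraries were made from 12 PGCLC cultures with a SMARTer Pico-input kit that keeps strand, per the labels. The deposited values are estimated counts and TPM per transcript from kallisto, per the file headers and the submitters' processing notes, which name Trim Galore 0.6.2 and GRCm38 (mm10); the version of kallisto is not given in the sources used here, nor is its transcript set. Counts are not scaled to depth, and the authors' TPM are scaled to effective length and depth.

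Of 119414 transcripts, 116728 (97.8%) matched GENCODE M21 by identifier, and their estimated counts were added up within each gene, then rounded. Genes were filtered by group (filterByExpr, minimum count 10, minimum total 15), leaving 16178. edgeR 4.0.16 (R 4.3.3) was run with TMM factors (0.927 to 1.063) and a two-sided quasi-likelihood F-test on all 12 libraries with 1 mean per group, which share 1 estimate of spread. Adjusted p are Benjamini-Hochberg over all genes tested, called below 0.05. The SE is the size of the log2 fold change over √F. Folds and levels are in CPM. The procedure was tested on simulated counts for TKO_48h against TKO_40h only, drawn from the spread fitted to these data. Changes were set only in genes more abundant than Car9, and no effect of transcript length was simulated, so it says nothing on either. PCR copies carry no molecular identifiers, so floors (3 counts) cover counting error only, and nothing states that replicates were from separate cell clones.

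The 10 genes, the 4 lists around them and the markers were chosen with earlier results of these data known. Named genes are all 10, up to 4 called genes of smallest adjusted p per list and comparison, the 10 genes most alike the mean profile (mean of at least 5 CPM, pseudocount 0.5 CPM) and the most alike gene of each. Alternatives were DESeq2 1.42.0, RLE factors, no filter, an effective length offset, a robust fit, protein-coding genes only, only the compared groups, a replicate block and each library left out. Sequence words of 31 bases shared with other transcripts were counted. Plots used matplotlib 3.10.9 in Python 3.11.15 (numpy 2.4.6, pandas 2.3.3).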

Additional observations from a re-analysis of the deposited data

How the results depend on the processing

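Of 501 genes called between TKO_40h and WT_40h, 888 between TKO_48h and TKO_40h and 916 between TKO_48h and WT_40h, the number depended on the setting, and so did the count of hypoxia genes among them (1 lower, 9 higher and 2 higher). Without a filter, 787 genes were called between TKO_40h and WT_40h, with 5 hypoxia genes lower there and 4 higher in TKO_48h against WT_40h. DESeq2 called 785 genes and 3 hypoxia genes lower between TKO_40h and WT_40h. The robust fit called 3 and protein-coding genes alone 2. In TKO_48h against TKO_40h the robust fit and DESeq2 each called 8 hypoxia genes, without Ndufa4l2. With only the compared groups in the fit, 1279 and 586 genes were called for TKO_40h and for TKO_48h against WT_40h, with 6 hypoxia genes lower and 4 higher, and 607 genes with 7 hypoxia genes higher (not P4ha2 or Car9) for TKO_48h against TKO_40h. With the effective length offset 78, 203 and 239 genes were called in the order above, with 2 hypoxia genes higher against TKO_40h and 1 against WT_40h in TKO_48h; the cause was not tested.

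Replicate numbers did not pair the libraries: deviations of same-numbered libraries correlated at -0.06 to 0.051 over 18 pairs. With a replicate block 2 hypoxia genes, Loxl2 and P4ha2 (edgeR adjusted p = 0.0477), were called lower between TKO_40h and WT_40h, and 8 higher in TKO_48h against TKO_40h, where Ndufa4l2 was lost (edgeR adjusted p = 0.0516).

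Leaving out 1 library gave 181 to 667 genes and 1 to 3 hypoxia genes lower in TKO_40h against WT_40h, 324 to 1107 genes and 5 to 9 higher in TKO_48h against TKO_40h, and 396 to 1540 genes and 1 to 3 higher in TKO_48h against WT_40h; a count of 1 there came without WT_40h replicate 2, WT_40h replicate 3, TKO_48h replicate 2 or TKO_48h replicate 3, and counts of 2 or 3 in TKO_40h against WT_40h without TKO_40h replicate 3, TKO_48h replicate 1, TKO_48h replicate 2 or TKO_96h replicate 1.

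Signs reversed only for log2 fold changes near 0 that were not called. Under the offset, Ndrg1 (0.0536) and Kdm3a (0.0709) in TKO_40h against WT_40h, Kdm3a in TKO_48h against TKO_40h (-0.1296), and P4ha2 (-0.0686) and Loxl2 (-0.0304) in TKO_48h against WT_40h changed sign, as did P4ha2 without the filter (-0.0035). Leaving out 1 library gave -0.3118 to 0.0919 for Ndrg1 in TKO_40h against WT_40h, and -0.0557 to 0.0533 for Kdm3a and -0.1365 to 0.1327 for P4ha2 in TKO_48h against WT_40h. All 569 alternative values of the comparisons with TKO_96h stayed below 0, but 23 moved in size beyond the spread between replicates. Log2 fold changes in TKO_96h against TKO_40h ran over the alternatives from -9.86 to -4.09 for Ndufa4l2, -2.13 to -0.48 for Car9, -3.3 to -2.54 for Ndrg1, -1.61 to -1.0 for Ero1l, -2.53 to -1.85 for P4ha2 and -2.79 to -2.07 for Vegfa. Under the offset P4ha2 was 4.76-fold below TKO_48h, beside 8.77-fold. Depth limits Car9 most, with 0 to 63 counts in a library, and Ndufa4l2 in TKO_96h, with 0, 0 and 13.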
